A study of Homo sapiens with 6 samples.

Results

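TLE3 regions that lay inside genes and carried a peak in every library were described, in chromatin of MDA-MB-453 cells with and without transient silencing of FOXA1. MDA-MB-453 is an established human breast cancer cell line of luminal type. Chromatin bound by TLE3 was immunoprecipitated and sequenced (ChIP-seq) from cells given siRNA against FOXA1 (siFOXA1, libraries 1 and 2) and from cells given siNS, against which the study sets the silencing (libraries 1 and 2). Cells were cross-linked with a protein cross-linker before formaldehyde. The study asks whether TLE3 binding requires FOXA1. All libraries come from 1 cell line, and the peak lists measure neither FOXA1 levels nor expression of any gene, so neither the silencing nor the identity of the cells was checked here.

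Peaks of the 4 lists that shared at least 1 base were merged on chromosomes 1 to 22 and X, which gave 72272 regions. A member had a peak of siFOXA1 1, siFOXA1 2, siNS 1 and siNS 2, overlapped the span of a protein-coding gene and lay more than 1 kb from every end of a protein-coding gene. There were 1193 members, which is 1.65% of all merged regions, 45.8% of the 2602 regions found in all 4 libraries, and 3.91% of the 30492 merged regions inside genes. Asking for a peak in siFOXA1 1, siFOXA1 2 and siNS 2 alone gave 2158 regions (9.78% of those inside genes), and lists of equal length gave 713 (6.76%). Of the other regions in all 4 libraries, 315 lay at gene ends and 1094 between genes. The lists themselves chose the members, so scores, widths and the contrast between siFOXA1 and siNS are given as descriptions, with no test. Regions inside genes that had a peak in both siNS lists and in neither siFOXA1 list (siNS-only, 6175) or the reverse (siFOXA1-only, 1355) are set beside them where a value needs a scale.

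TLE3 is a corepressor of the Groucho/TLE family. It has no DNA-binding domain of its own and is recruited by transcription factors, among them forkhead, RUNX, HES and TCF/LEF proteins, after which it engages histone deacetylases. FOXA1 is a pioneer factor that opens chromatin at the enhancers of luminal breast cells, and binding sites of that kind are common in introns. Regions of transcription factor and cofactor binding inside a gene may act on that gene or on another one, so the gene named with a region says where it lies and not what it controls.

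Some members overlapped start windows inside a gene, and their sequences can be shown. RefSeq lists start windows (250 bases before to 50 after an annotated start, GRCh38.p14) also for internal starts and for long non-coding RNA genes. Of the 1193 members, 60 overlapped at least 1 such window, and 48 of these overlapped a window of the gene they lay in. The 250 bases before the start nearest to the peaks are given 5′ to 3′ for 6 members. Of these, 5 lie in genes of the corepressor, Notch and luminal lists described further on, and TP73-AS3 lies in TP73, which holds the only member with a window among the 10 leading members. Capitals mark letters of the nuclear factor I (TTGGCA, one arm of the palindrome this factor binds), C/EBP (TTGCNNAA), AP-1 (TGANTCA) or relaxed forkhead (TGTTTNC) motif, on either strand.
KRT7-AS (chr12:52247449-52247698, minus strand): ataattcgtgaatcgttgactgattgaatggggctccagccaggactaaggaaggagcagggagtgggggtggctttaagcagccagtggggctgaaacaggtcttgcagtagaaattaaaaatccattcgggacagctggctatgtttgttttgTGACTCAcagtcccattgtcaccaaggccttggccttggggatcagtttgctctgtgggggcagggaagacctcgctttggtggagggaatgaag
HDAC4 (chr2:239267515-239267764, minus strand): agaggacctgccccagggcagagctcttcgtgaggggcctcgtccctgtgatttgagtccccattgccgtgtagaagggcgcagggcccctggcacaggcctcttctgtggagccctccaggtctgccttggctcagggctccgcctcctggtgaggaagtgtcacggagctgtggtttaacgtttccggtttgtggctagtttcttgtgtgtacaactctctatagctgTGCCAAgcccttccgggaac
CBFA2T2 (chr20:33562092-33562341, plus strand): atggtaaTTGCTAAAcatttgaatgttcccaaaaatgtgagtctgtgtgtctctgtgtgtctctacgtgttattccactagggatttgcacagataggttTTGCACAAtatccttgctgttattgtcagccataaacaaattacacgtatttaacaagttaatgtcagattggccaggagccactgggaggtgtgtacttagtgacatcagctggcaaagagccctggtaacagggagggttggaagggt
RBPJ (chr4:26319496-26319745, plus strand): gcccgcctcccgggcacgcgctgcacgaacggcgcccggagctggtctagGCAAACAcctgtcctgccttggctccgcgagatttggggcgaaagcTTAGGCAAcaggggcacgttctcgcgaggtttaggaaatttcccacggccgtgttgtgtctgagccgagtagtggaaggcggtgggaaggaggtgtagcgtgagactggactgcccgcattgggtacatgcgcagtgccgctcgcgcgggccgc
GSE1 (chr16:85613072-85613321, plus strand): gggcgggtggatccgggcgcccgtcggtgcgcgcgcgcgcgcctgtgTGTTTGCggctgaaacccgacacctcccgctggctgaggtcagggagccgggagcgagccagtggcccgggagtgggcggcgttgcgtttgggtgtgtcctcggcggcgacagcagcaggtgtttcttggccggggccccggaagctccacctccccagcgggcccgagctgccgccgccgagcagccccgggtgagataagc
TP73-AS3 (chr1:3668946-3669195, minus strand): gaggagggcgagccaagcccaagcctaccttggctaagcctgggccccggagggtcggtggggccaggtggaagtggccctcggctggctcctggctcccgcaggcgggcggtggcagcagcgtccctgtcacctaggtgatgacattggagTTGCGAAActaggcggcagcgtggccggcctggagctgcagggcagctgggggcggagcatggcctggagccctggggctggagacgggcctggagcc

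The windows differ in composition. The 250 bases at RBPJ, GSE1 and TP73-AS3 were 65.2%, 74.0% and 71.2% G or C, with 26, 31 and 14 CpG pairs, and those at CBFA2T2 were 42.8% with 2. KRT7-AS, antisense to the luminal keratin gene KRT7, held 1 AP-1 match, HDAC4 1 nuclear factor I match, and CBFA2T2 2 C/EBP matches. RBPJ and TP73-AS3 held 1 C/EBP match each. A relaxed forkhead match stood at RBPJ and at GSE1 and at none of the other 4. The same stretches at TBL1XR1, at TGIF1 and at LOC105371934, in RARA, were also read. They held no match to any of these motifs and are not printed. The printed windows thus do not show how common a match is. A match describes letters and does not show a bound site.

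Members that overlapped a start window included 4 in corepressor genes (GSE1, HDAC4, TBL1XR1 and CBFA2T2) and 1 in a gene of the Notch list, RBPJ. The best-scoring peak of a member need not reach the window itself. It did so in all 4 lists at TBL1XR1, CBFA2T2 and RBPJ, in siNS 1 and 2 only at GSE1, and in siNS 1 only at HDAC4. The region across the HDAC4 start scored 12.6 and 18.1 in siFOXA1 1 and 2, against 193 and 140 in siNS 1 and 2, and its best peaks had midpoints at -948 and -891 bp from the start in siFOXA1 1 and 2, against -362 and -1020 bp in siNS 1 and 2, where a negative distance is upstream. HDAC4 encodes a class IIa histone deacetylase, and these scores are of the region and not of binding at its start. The score is the authors' value per peak, whose definition is not stated. Scores are printed for each list but are not on a shared scale between lists. Median scores of all members were higher in siNS 1 and 2 (42.0 and 76.9) than in siFOXA1 1 and 2 (14.4 and 15.7). A member is therefore compared between groups only by its order among the members of a list. Where scores stand alone, no change is read from them. HDAC4 stood at a mean order of 587.75 in siFOXA1 and 202.5 in siNS among the 1193 members, where 1 is the highest score. TBL1XR1, a subunit of corepressor complexes with histone deacetylase 3, stood at 817 in siFOXA1 and 137 in siNS. The siFOXA1 libraries differed on TBL1XR1, at orders of 484 in siFOXA1 1 and 1150 in siFOXA1 2. RBPJ, the DNA-binding factor of the Notch pathway, scored 30.1 and 29.8 in siFOXA1 1 and 2, against 419 and 260 in siNS 1 and 2, with a mean order of 232 in siFOXA1 and 50.5 in siNS. CBFA2T2, an ETO-family corepressor, went the other way, at 619.5 in siFOXA1 and 984.75 in siNS. Best-peak midpoints lay close to the CBFA2T2 start, at -82.5 and -81.5 bp in siFOXA1 1 and 2, against 50.5 and 20.5 bp in siNS 1 and 2.

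The 60 start-window members as a set stood further back in the siFOXA1 lists than in the siNS lists. Their median order was 689.25 in siFOXA1 1 and 817 in siFOXA1 2, against 274.5 in siNS 1 and 475.25 in siNS 2. The other 1133 members had medians of 593 and 588.5 in siFOXA1, against 615 and 605.5 in siNS. Start-window members thus lay behind the other members in both siFOXA1 lists and ahead of them in both siNS lists. The best peak shared a base with a window in 42 and 40 of the 60 in siFOXA1 1 and 2, against 55 and 58 in siNS 1 and 2. For the 38 in which it did so in all 4 lists, median orders were 466.25 and 662 in siFOXA1 1 and 2, against 270.5 and 448.25 in siNS 1 and 2. These 38 were therefore ahead of the other members in siFOXA1 1 and behind them in siFOXA1 2, and 30 of them stood further ahead in siNS than in siFOXA1. A better order in siNS than in siFOXA1 was held by 49 of the 60 (81.7%) and by 580 of the 1133 others (51.2%). Regions with a start window were also wide: 47 of the 60 were above the median width of all members. Among members above that width, median orders were 768 in siFOXA1 and 356.5 in siNS for start-window members, against 554 and 437 for the 549 others. Among the narrower members the medians were 781.75 in siFOXA1 and 675 in siNS for the 13 start-window members, against 695 and 768.875 for the 584 others. The part of width in this contrast was not tested further. With only the better-scoring peaks of each list, from its median score upwards, the median order of start-window members in siFOXA1 was no longer behind the middle, at 48.9% of the members counted from the highest score, against 63.1% with all peaks.

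**Figure D1:**
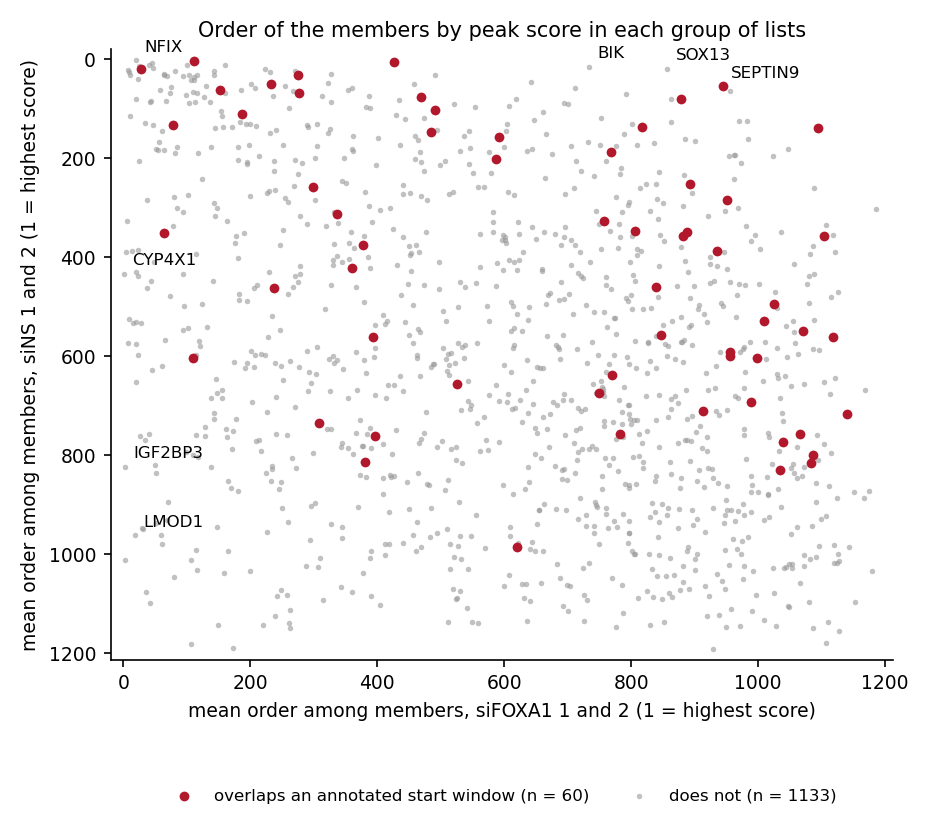
Mean order of each member by peak score among the 1193 members, in siFOXA1 1 and 2 (x axis) and in siNS 1 and 2 (y axis, 1 at the top); red points overlap an annotated start window (n = 60) and grey points do not (n = 1133). Of the red points, 49 of 60 stand further ahead in siNS than in siFOXA1, and members such as IGF2BP3 and LMOD1 lie at the left edge far down.

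The share of members at an annotated start was 5.03% (exact 95% binomial interval 3.86 to 6.43%, counting error only). It was near the 5.09% of all other regions inside genes, which pools unlike classes. A window lay under 0.738% of siFOXA1-only regions inside genes (10 of 1355) and 17.3% of siNS-only regions inside genes (1071 of 6175). The remaining 21769 regions inside genes, in neither class and not members, had 1.89% and a median width of 306 bp. The members' share lay between those of the siFOXA1-only and siNS-only classes. Regions of different width meet windows with different chance, and median widths of the merged regions were 948 bp for members, 454 bp for siFOXA1-only and 674 bp for siNS-only regions. Within each width class cut at the members' quartiles, members had the lower share than siNS-only regions. In regions up to 723 bp wide, windows lay under 2% of members and 8.05% of siNS-only regions. In those over 1240 bp, windows lay under 12.1% of members and 43.9% of siNS-only regions. When regions were grouped instead by their order in the siNS lists, the strongest group was close to even, with 9.36% of 299 members and 10.2% of 108 siNS-only regions. In the next group the shares were 5.37% of 298 members and 27.4% of 541 siNS-only regions. Starts that the RefSeq table does not list are not counted in any of these shares.

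**Figure D2:**
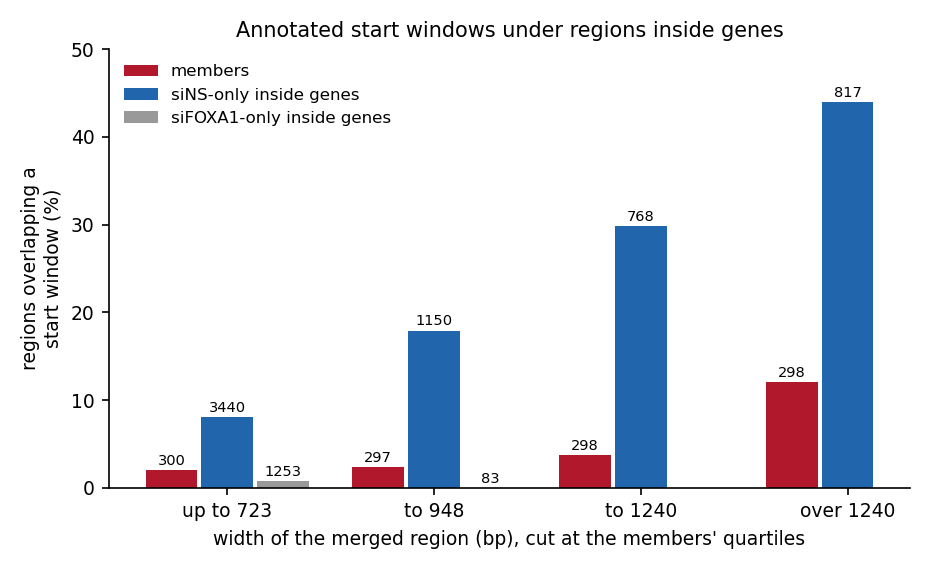
Share of regions inside genes that overlap an annotated start window, by width of the merged region in classes cut at the members' quartiles; numbers above the bars are regions, and classes under 20 regions are not drawn. Members (red) stay at or under 12.1% while siNS-only regions (blue) reach 43.9% in the widest class.

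The start windows under members were poorer in CpG pairs than those under siNS-only regions, and held some motif letters in other shares. Taking the window nearest to each region, the median ratio of observed to expected CpG was 0.422 for 60 member windows, 0.807 for 1069 siNS-only windows and 0.579 for all 35116 windows in the table. The nuclear factor I letters TTGGCA stood in 31.7% of member windows, 9.26% of siNS-only windows and 12.5% of all windows. Both arms as the full nuclear factor I palindrome stood in 0 of the 60 member windows, 1 siNS-only window and 10 of all windows. The C/EBP letters TTGCNNAA stood in 20%, 5.52% and 10.5% in the same order, and the AP-1 letters TGANTCA in 16.7%, 5.05% and 7.71%. The GC box GGGCGG stood in 46.7% of member windows, 73.0% of siNS-only windows and 45.0% of all windows. The relaxed forkhead letters TGTTTNC stood in 20% of member windows, 12.9% of siNS-only windows and 18.0% of all windows. In windows with a CpG ratio under 0.6, the nuclear factor I letters stood in 32.5% of 40 member windows, 14.4% of 236 siNS-only windows and 16.8% of 17950 windows of the table, the C/EBP letters in 25%, 9.32% and 14.7%, and the AP-1 letters in 22.5%, 13.1% and 12.1%. The GC box stood in 27.5% of these member windows, 39.8% of siNS-only windows and 15.3% of all windows, so its share in member windows, close to that of all windows without this limit, was above it here. The relaxed forkhead share was then lower in member windows (17.5%) than in siNS-only (23.7%) or all windows (25.1%). Both strands were searched, and 20 motifs were read, so these are descriptions of a few windows. Without the CpG limit, other motifs differed in both directions. The strict forkhead letters TGTTTAC stood in 5% of member windows, 2.62% of siNS-only windows and 3.42% of all windows. In the same order, the E-box CAGNTG had 63.3%, 46.3% and 49.9%, and the TEAD letters GGAATG 18.3%, 10.2% and 14.0%. The CCAAT box had 23.3%, 31.6% and 34.6%. Sequence of the other 1133 members was not analysed here.

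Members varied widely in score within each list. In siFOXA1 1 they ranged from 3.01 to 539 with a median of 14.4, and in siFOXA1 2 from 2.33 to 581 with a median of 15.7. In siNS 1 they ranged from 2.75 to 657 with a median of 42.0, and in siNS 2 from 3.65 to 659 with a median of 76.9. The other regions inside genes had median scores of 8.53 and 9.50 in siFOXA1 1 and 2, and 7.29 and 10.2 in siNS 1 and 2. Members lay above the median score of their list in 72.1% and 72.9% of cases in siFOXA1 1 and 2, and in 85.0% and 96.1% in siNS 1 and 2. They were thus stronger than most of their list in every library, and the 2 siNS libraries differed from each other more than the 2 siFOXA1 libraries did. Members held 22 and 18 of the 100 highest-scoring peaks of siFOXA1 1 and 2, and 41 and 42 of those of siNS 1 and 2, while making up 10.1% and 8.95% of all peaks of the siFOXA1 lists and 2.82% and 2.66% of the siNS lists.

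Peaks of members were wider than other peaks inside genes. A wide peak has more room to share bases with peaks of other lists, as membership asks. The part of this rule in the widths was not tested. The median width of the best peak was 409 and 419 bp in siFOXA1 1 and 2, against 618 and 820 bp in siNS 1 and 2. Group means were 414 ± 7.07 bp in siFOXA1 and 719 ± 143 bp in siNS (SD, n = 2 each). The other regions inside genes had medians of 319 and 330 bp in siFOXA1 and 345 and 386 bp in siNS. The narrower siFOXA1 peak usually lay within the siNS 2 peak: the best siFOXA1 1 peak did so in 77.7% of members and the best siFOXA1 2 peak in 75.9%. Within the best siNS 1 peak lay 50.9% of siFOXA1 1 peaks and 48.9% of siFOXA1 2 peaks.

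**Figure D3:**
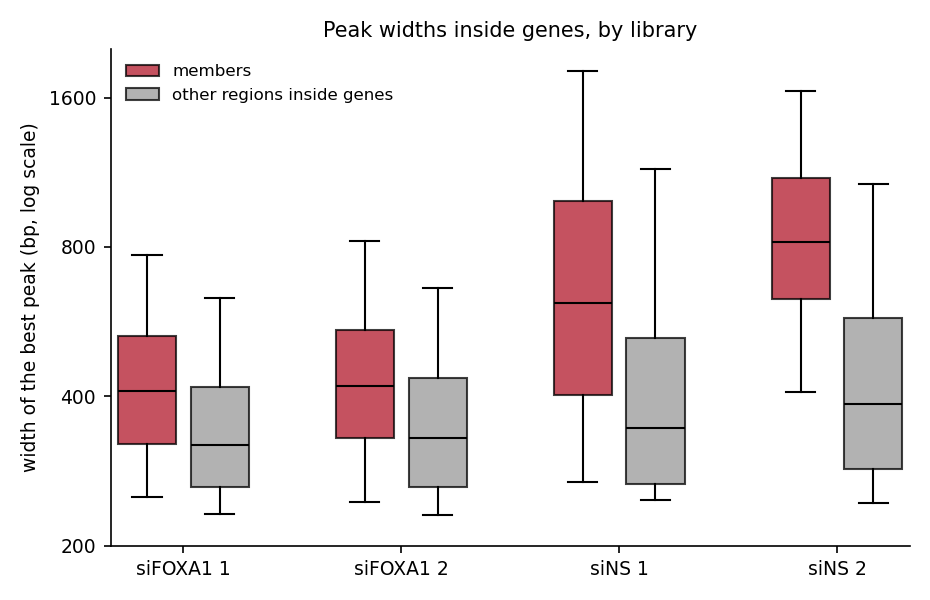
Width of the best peak of each region inside genes, by library, for the 1193 members (red) and all other regions inside genes that the library holds (grey); boxes span the middle 50% with the median, whiskers the 5th to 95th percentile, on a log axis. Member medians are 409 and 419 bp in the siFOXA1 lists and 618 and 820 bp in the siNS lists, each above the grey median beside it.

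Members were made by joining peaks that share bases, which keeps their peaks near each other, so distances between peaks are given as a description. The midpoints of the best peaks were a median of 40.5 bp apart between siFOXA1 1 and 2 and 76 bp apart between siNS 1 and 2. Across the groups the medians were 107 and 108.5 bp for siFOXA1 1 and 2 against siNS 1, and 83.5 and 83 bp against siNS 2. Peaks were also wider in siNS, and the part of width in these distances was not tested. In 7 members the midpoints of siFOXA1 1 and 2 were more than 500 bp apart, against 22 for siNS 1 and 2 and 34 to 60 for pairs across the groups. A few members were joined only through neighbouring peaks, since the best peaks of siFOXA1 1 and siNS 1 shared no base in 47 members.

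The order of the members was shared more within each group than across the groups. Spearman's rho over the 1193 members was 0.70 between siFOXA1 1 and 2 and 0.62 between siNS 1 and 2. It was 0.18 and 0.13 between siFOXA1 1 and 2 and siNS 1, and 0.38 and 0.33 between siFOXA1 1 and 2 and siNS 2. Members are not independent samples, and the lists share peak calling and sequence context, so no p is given. Of the leading 298 members by mean order in siFOXA1, 131 (44.0%) were also among the leading 298 in siNS. Unrelated orders would share a fraction of about 298 in 1193, and the overlap was above that.

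The 10 members with the best mean order over all 4 lists lay in transcription factor, apoptosis and signalling genes among others. The first lay within NFIX, a nuclear factor I gene (chr19:13051168-13052334, 46462 bp from a gene end), and scored 112 and 124 in siFOXA1 1 and 2, against 657 and 561 in siNS 1 and 2. It stood at a mean order of 20.5 in siFOXA1 and 2 in siNS, the best of any member in siNS. QSOX2, a sulfhydryl oxidase gene (chr9:136229212-136230449), scored 179 and 175 in siFOXA1, against 340 and 524 in siNS. By mean order QSOX2 stood further ahead in siFOXA1 (7.5) than in siNS (22.5). The regions in SYNJ2, an inositol phosphatase gene, and GPR161, a ciliary receptor gene that restrains hedgehog signalling, stood at mean orders of 8.5 and 10 in siFOXA1, against 26 and 32.5 in siNS. BMF, a pro-apoptotic BH3-only gene, stood at 24 in siFOXA1 and 14 in siNS, and TP73, a p53-family gene, at 28.5 in siFOXA1 and 19.5 in siNS. The others lay in DNAJC5B, TSKU, LGR6, a receptor gene for R-spondins, and DGLUCY, with mean orders of 23 to 46.5 in siFOXA1 and 7.5 to 40 in siNS. All 10 lay between 4453 and 66539 bp from a gene end.

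Other members led in one group of lists only. The region in CYP4X1, a cytochrome P450 gene (chr1:47030519-47031828), had the highest score of any member in both siFOXA1 lists, 539 and 581, against 21.1 in siNS 1 and 315 in siNS 2. The siNS libraries disagreed on it, with one low and one high value. IGF2BP3, which encodes an RNA-binding protein (chr7:23334470-23335221), had 249 and 295 in siFOXA1 1 and 2, against 41.4 and 23.9 in siNS 1 and 2. LMOD1, an actin nucleator gene of smooth muscle, had 126 and 133 in siFOXA1, against 6.92 and 49.6 in siNS. The IGF2BP3 and LMOD1 regions stood at mean orders of 3 and 18 in siFOXA1, against 822.5 and 960.5 in siNS. They were members because a siNS peak was called there, although it ranked low.

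The reverse was seen at BIK, another BH3-only apoptosis gene (chr22:43113775-43115808), which scored 24.0 and 4.91 in siFOXA1 1 and 2, against 400 and 473 in siNS 1 and 2. SOX13, a SOX transcription factor gene (chr1:204083203-204084976), had 7.04 and 14.1 in siFOXA1, against 483 and 373 in siNS. SMOC1, which encodes a secreted calcium-binding protein, had 12.8 and 15.3 in siFOXA1, against 319 and 340 in siNS. Their mean orders were 733.75, 857 and 642 in siFOXA1, against 15.5, 19 and 46.5 in siNS. These 3 members were named for leading in siNS and standing behind the middle in siFOXA1, so the gap follows from the choice. The siFOXA1 libraries differed on BIK, at orders of 315 in siFOXA1 1 and 1152.5 in siFOXA1 2. Scores of lists with different lengths are not on a shared scale.

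Merged regions of members were 383 to 6729 bp wide, with a median of 948 bp, and 61 were over 2000 bp. The widest lay in GSE1 (chr16:85609687-85616415), then in CCDC57 (4838 bp), NHERF1, a PDZ scaffold gene (4826 bp), BCL9L, a Wnt coactivator gene (4270 bp) and SEPTIN9 (3998 bp). At NHERF1 the best peaks scored 37.1 and 46.6 in siFOXA1 1 and 2, against 304 and 215 in siNS 1 and 2. At SEPTIN9 they scored 8.13 and 8.97 in siFOXA1, against 323 and 289 in siNS. By mean order NHERF1 stood at 137 in siFOXA1 and 87.5 in siNS, and SEPTIN9 at 944.5 in siFOXA1 and 55 in siNS. Most members held 1 peak per list, and 39 and 32 members held more than 1 peak of siFOXA1 1 and 2, against 75 and 43 for siNS 1 and 2.

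In median distance to a gene end and median gene span, members were close to all merged regions inside genes. In both they lay between the siFOXA1-only and siNS-only regions. The median distance to the nearest gene end was 21.5 kb, against 18.8 kb for all regions inside genes. Of members, 25.7% lay more than 50 kb from a gene end, against 54.6% of siFOXA1-only, 18.4% of siNS-only and 26.4% of all regions inside genes. For the 935 members in 1 gene of known strand, the gene had a median span of 118 kb, against 296 kb for siFOXA1-only, 80.6 kb for siNS-only and 113 kb for all regions. With each gene cut into 4 equal stretches from 5′ to 3′, the stretches held 24.4%, 27.3%, 26.6% and 21.7% of these members, against 25.99%, 25.4%, 24.5% and 24.1% of all regions. For siNS-only regions the first stretch held 30.7% and the last 20.4%. Within 5 kb of the 5′ end lay 7.17% of members, against 2.39% of siFOXA1-only, 16.8% of siNS-only and 11.1% of all regions. Exons and introns were not told apart.

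The distance rule cut a continuous range. Just over 1 kb from a gene end lay the members in NCOA5 (1003 bp), ARHGAP35 and the overlapping LOC124904791 (1028 bp), and KCNK15 (1046 bp). The NCOA5 region scored 14.1 and 20.6 in siFOXA1 1 and 2, against 6.65 and 40.9 in siNS 1 and 2. Just under 1 kb lay regions of all 4 lists near the ends of CSRP3 (957 bp), SYT2 (962 bp) and MIEF1 (966 bp). The MIEF1 region scored 13.7 and 33.9 in siFOXA1, against 23.4 and 24.5 in siNS. Between 1 and 2 kb of a gene end lay 56 members.

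The members lay in 968 of 19970 protein-coding genes (4.85%), and in 1611 when siNS 1 was left out. Of these genes, 792 held 1 member, 125 held 2 and 51 held 3 or more, and 26 members lay in 2 genes and 2 in 3. Their median span was 97.2 kb, against 24.2 kb for all protein-coding genes and 53.1 kb for genes with any merged region inside. A siFOXA1-only region inside was also held by 168 of them (17.4%) and a siNS-only region by 558 (57.6%), and 330 held neither. Of all protein-coding genes, 4.92% held a siFOXA1-only and 18.8% a siNS-only region, and of the 9190 genes with any merged region inside, 10.7% and 40.9% did. GSE1, a gene of the BHC and CoREST corepressor complexes, held 15 members together with 20 siNS-only regions and no siFOXA1-only region. Its members scored from 5.30 to 43.4 in the siFOXA1 lists and from 25.1 to 355 in the siNS lists. By mean order most GSE1 members stood further ahead in siNS, as at chr16:85349255-85350399 (700.25 in siFOXA1, 90 in siNS). A few did the reverse, as at chr16:85471767-85473247 (331 in siFOXA1, 600 in siNS). Only 184 members (15.4%) had another member within 10 kb, and the median distance to the nearest member was 274 kb.

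The genes with the most members after GSE1 were DGLUCY, RXRA, ARSG and ZFHX3 with 5 each. RXRA, the retinoid X receptor gene, spans 114 kb and also held 11 siNS-only regions. Its 5 members lay within chr9:134355443-134415200. Its leading member (chr9:134413315-134415200) scored 55.3 and 78.4 in siFOXA1 1 and 2, against 352 and 372 in siNS 1 and 2. The other 4 RXRA members scored 6.54 to 25.9 in siFOXA1, against 44.8 to 271 in siNS. By mean order the leading member stood at 64.5 in siFOXA1 and 30.5 in siNS. The other 4 stood at 305.75 to 969.25 in siFOXA1, against 124.5 to 519.75 in siNS. ZFHX3, a homeobox and zinc finger factor gene, spans 1109 kb. CNIH3, ST3GAL4, a sialyltransferase gene, EEFSEC, KIAA1671 and PAK4, a p21-activated kinase gene, held 4 each. PAK4 and ST3GAL4 are short among them, with 7.01 and 6.79 members per 100 kb. PRKCA, KCNMA1 and ZMIZ1 also held 4, and only the first 5 of the 8 genes tied at 4, by the best order of a member, are described. All 13 of these genes, GSE1 included, also held siNS-only regions, and CNIH3 held 1 siFOXA1-only region and KCNMA1 2.

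Among 15 gene lists (449 symbols, all matched), the largest shares of genes with a member were in the corepressor, androgen and apocrine, cell adhesion and oestrogen response lists, and 2 lists had none. The lists were chosen with earlier results of these data known, so their ranking is a description only. Each count is to be read against the 4.85% of all protein-coding genes, and long genes have more room for a member, so members per Mb of gene span are given too, where all genes together had 0.946. Corepressor genes held a member in 9 of 36 cases (25%), with 29 members and 5.80 per Mb, and had a median span of 82.1 kb against 24.2 kb for all genes. They included, after GSE1, ZMIZ1, a PIAS-like cofactor gene, with 4, HDAC4 with 2, and TLE5, TBL1XR1, CBFA2T2, MTA1 and MTA3 with 1 each. GSE1 gave 15 of the 29 members. The lists with the largest shares were also rich in siNS-only regions, which 18.8% of all protein-coding genes held. Such regions lay in 26 of 36 corepressor genes and 14 of 28 androgen and apocrine genes. For oestrogen response genes the count was 13 of 25, and for cell adhesion genes 14 of 33. High shares in these lists were thus not particular to members. The TLE5 region, in the gene of a short Groucho-family protein, scored 9.53 and 16.6 in siFOXA1 1 and 2, against 221 and 129 in siNS 1 and 2.

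**Figure D4:**
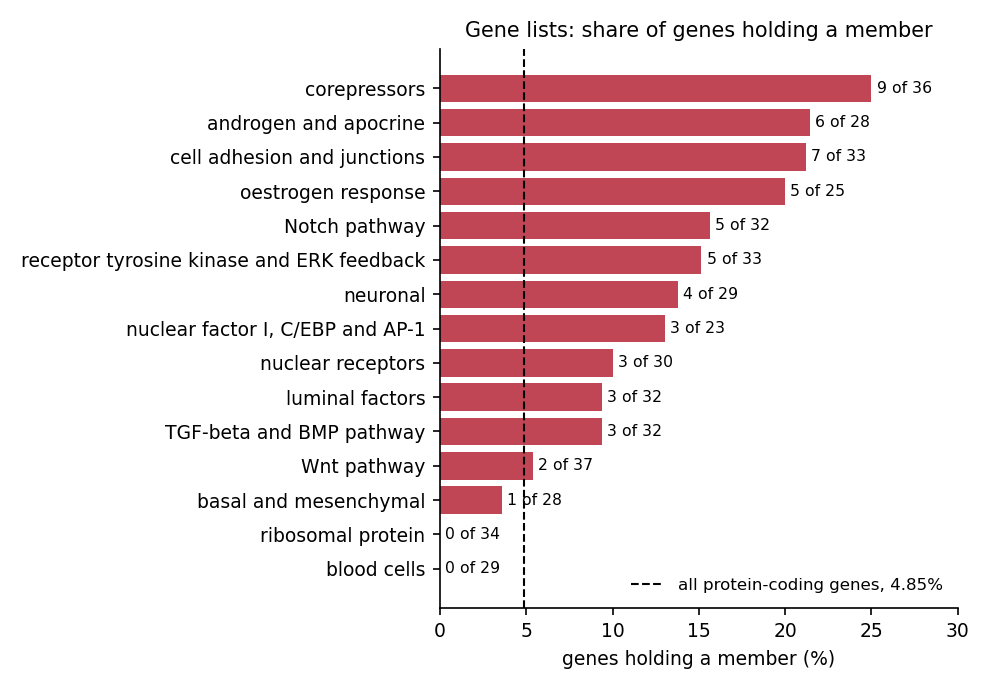
Share of the genes of each list that hold at least 1 member, with the number of genes beside each bar; the dashed line is the 4.85% of all protein-coding genes. Corepressor genes reach 25%, and ribosomal protein and blood cell genes have none. The lists were chosen with earlier results of these data known.

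Androgen and apocrine genes held a member in 6 of 28 cases (21.4%), with 11 members and 5.97 per Mb. ZBTB16, a zinc finger repressor gene, had 3, PMEPA1, a feedback inhibitor gene, ABCC11, a transporter gene of apocrine cells, and SPDEF, which is also on the luminal list, had 2 each, and SLC45A3 and ACSL3 had 1. PMEPA1 had one member that scored 59.7 and 54.4 in siFOXA1 1 and 2, against 140 and 107 in siNS 1 and 2, and a neighbour that scored 6.40 and 7.99 in siFOXA1, against 50.2 and 30.4 in siNS. By mean order the first stood further ahead in siFOXA1 (84.5) than in siNS (301.5). The neighbour stood further back in siFOXA1 (1038.25) than in siNS (768). SPDEF, an ETS factor of luminal cells, scored 5.93 to 19.5 over its 2 members in siFOXA1, against 110 to 227 in siNS. These members stood at mean orders of 785.5 and 900.5 in siFOXA1, against 308 and 164.5 in siNS. Oestrogen response genes held a member in 5 of 25 cases (20%, 3.32 per Mb), namely RARA with 2 and PKIB, NHERF1, ADCY9 and CA12. The ADCY9 region, in an adenylate cyclase gene, scored 61.3 and 85.1 in siFOXA1 1 and 2, against 127 and 214 in siNS 1 and 2. By mean order it stood further ahead in siFOXA1 (54) than in siNS (183.5).

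Cell adhesion and junction genes held a member in 7 of 33 cases (21.2%, 2.87 per Mb). LAMB3, a laminin chain gene, had 2, and PARD3, a polarity gene, TJP3, a tight junction gene, DSP, JUP, ITGA6 and CGN had 1 each. PARD3 led in siFOXA1, with 123 and 92.5 in siFOXA1 1 and 2, against 76.8 and 66.0 in siNS 1 and 2, which is a mean order of 28 in siFOXA1 and 532.75 in siNS. TJP3 was the reverse, with 23.5 and 34.2 in siFOXA1, against 322 and 260 in siNS. By mean order TJP3 stood at 266.5 in siFOXA1 and 64 in siNS. Luminal factor genes had a member in 3 of 32 cases (9.38%, 2.38 per Mb), namely SPDEF and KRT7 with 2 and PRLR, the prolactin receptor gene, with 1. Nuclear receptor genes had one in 3 of 30 (10%, 1.76 per Mb), RXRA, RARA and RARB. The nuclear factor I, C/EBP and AP-1 list had one in 3 of 23 (13.0%, 1.80 per Mb), and all 3 were nuclear factor I genes, NFIB, NFIC and NFIX.

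Notch genes held a member in 5 of 32 cases (15.6%, 2.68 per Mb), RBPJ with 2 and NOTCH3, a receptor, MAML3, a coactivator, LFNG, a glycosyltransferase that modifies Notch receptors, and ADAM10, the sheddase, with 1 each. MAML3 scored 4.87 and 11.1 in siFOXA1 1 and 2, against 256 and 180 in siNS 1 and 2, and LFNG 11.2 and 12.5 in siFOXA1, against 257 and 190 in siNS. Mean orders were 982 in siFOXA1 and 125.5 in siNS for MAML3, and 752.5 in siFOXA1 and 118.5 in siNS for LFNG. Receptor tyrosine kinase and ERK feedback genes had one in 5 of 33 (15.2%, 1.27 per Mb), ERBB2, NTRK2, EPHA2, EPHB3 and SPRED2. The ERBB2 region (chr17:39704369-39706694) scored 14.9 and 26.7 in siFOXA1, against 195 and 218 in siNS. By mean order it stood at 444 in siFOXA1 and 121 in siNS. TGF-beta and BMP genes had one in 3 of 32 (9.38%, 1.31 per Mb), SMAD6 with 2, SMAD3 and TGIF1, and Wnt genes in 2 of 37 (5.41%, 1.01 per Mb), NKD1 with 2 and WNT7B. Neuronal genes had one in 4 of 29 (13.8%), in RBFOX1, RBFOX3, GRIN2A and DLG2, but only 0.324 per Mb of their long spans. The RBFOX3 region was among the stronger, with 82.9 and 79.7 in siFOXA1 1 and 2, against 291 and 237 in siNS 1 and 2. Its mean order was 44 in siFOXA1 and 84 in siNS. Basal and mesenchymal genes had one in 1 of 28 (3.57%), MYLK with 2 members, and ribosomal protein genes (0 of 34) and blood cell genes (0 of 29) had none.

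Members were spread over all 23 chromosomes. Chromosome 1 held the most, 174 (14.6%), with 8.87% of the span of protein-coding genes. Chromosomes 16, 17, 19 and 22 held 75, 80, 63 and 48, which is 6.29%, 6.71%, 5.28% and 4.02%, against 3.09%, 3.53%, 2.54% and 1.53% of gene span. For siFOXA1-only regions inside genes the shares on these 4 chromosomes were 1.03%, 1.77%, 0.369% and 0.812%, and for siNS-only regions 5.34%, 6.95%, 7.85% and 4.05%. Chromosome 4 held 17 members (1.42%) with 5.48% of gene span. Of microRNA hairpins, those of MIR4252, MIR4492, MIR4505 and MIR6884 lay at least in part within a member, in ESPN, BCL9L, MIDEAS and MED24, as did the mature miR-6070 in HSF2BP.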

How the data were processed

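TLE3 ChIP-seq peak lists of 4 libraries were used (siFOXA1 1 and 2, siNS 1 and 2). The labels call them biological replicates. The 2 input libraries, whose labels name the line as MDA-MB-454, were not analysed here. The peak list deposited for siFOXA1 2 is numbered differently from its title, which was followed here. Trim Galore, BWA 0.7.5a, SAMtools, MACS2 and the build hg38 are named, per the submitters' processing notes. Calling thresholds, other settings and the role of the inputs are not stated there. The authors deposited a score for each peak, whose definition is not stated. It was compared only as an order within a list, and scores are printed beside it. The lists hold no counts, so depth is unknown and a longer list can reflect depth, yield or binding. They held 12249, 13754, 45105 and 46586 peaks (siFOXA1 1, siFOXA1 2, siNS 1, siNS 2) on chromosomes 1 to 22 and X. The 20 mitochondrial peaks were left out.

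Positions are 1-based. Genes, strands, start windows and sequences came from RefSeq tables on GRCh38.p14, which shares its primary chromosomes with hg38. Without a genome sequence, motifs were searched in start windows in place of the regions. Each member's best-scoring peak per list gave its score, width and midpoint. Members, gene lists and motifs were chosen with earlier results of these data known. Named members are the 10 with the best mean order, those leading in 1 group only, the widest, those nearest the distance limit, the 10 genes with the most members and up to 3 genes per list. CYP4X1, the further genes of each list and the printed sequences were chosen after values were seen. Some items these rules name are not reported here. No comparison was tested, because regions are not replicates and the lists chose the members. Merging was checked on simulated lists and against bedtools 2.31.1. Python 3.11.15, numpy 2.4.6, pandas 2.3.3, scipy 1.17.1 and matplotlib 3.10.9 were used.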

Additional observations from a re-analysis of the deposited data

How the results depend on the processing

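No paired analysis was possible because a member needs a peak in every list and no value is tested between siFOXA1 and siNS, which leaves no fit for a replicate block to enter. With only the peaks from each list's median score upwards, there were 598 members (4.80% of regions inside genes) in 529 genes, with a median siFOXA1 width of 477 bp and start-window members at 48.9% of the order in siFOXA1. With lists of equal length there were 713 members (6.76%) in 603 genes, with median widths of 424.5 bp in siFOXA1 and 902.5 bp in siNS and 7.01% overlapping a start window. The share of regions inside genes was 3.38% when every pair of best peaks had to overlap by at least 50% of the shorter, 4.47% with widened peaks and 4.18% beyond 5 kb of a gene end. Leaving out 1 library asks for a peak in fewer lists. It gave 1208 to 2158 members, 5.12% to 9.78% of regions inside genes, 982 to 1611 genes, median widths of 376 to 414.5 bp in siFOXA1 and 612 to 704.5 bp in siNS, an order of start-window members in siFOXA1 of 55.7% to 68.1%, and start windows under 3.43% to 5.63% of members. The largest member and gene counts, and the 3.43%, came without siNS 1. The order of start-window members in siNS ranged from 21.9% to 41.6% around 31.4% in 11 alternatives. Each shift was smaller than the SD of the siNS lists, whose median orders were 274.5 in siNS 1 and 475.25 in siNS 2. That spread is wide, so this comparison could hardly show a shift. Counting only members whose best peak shares a base with a window in every list, their order in siFOXA1 was 47.3%. The motif shares of start windows for the nuclear factor I, C/EBP, AP-1 and forkhead letters stayed within counting error in the 7 alternatives tried on each. That error is wide for so few windows, and the alternatives share many of them, so this could hardly show a shift. Shares ranged from 25% to 33.3% for the nuclear factor I letters and from 15.5% to 25% for C/EBP. The GC box fell to 27.5% in windows with a CpG ratio under 0.6. Settings for start windows were chosen after seeing the data. Motif windows around region centres were not run. The causes of these shifts were not tested.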
